A study of Rattus norvegicus with 6 samples.

Results

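The proteasome genes of the rat amygdala are described here, in rats that had or had not been tested for social play. They were chosen by symbol alone: every feature of the deposited table whose symbol starts with Psma, Psmb, Psmc, Psmd, Psme, Psmf or Psmg followed by a number. The rule found 50 of 32662 features. Among them, Psmc3ip codes for a meiotic recombination factor and Psme1-ps1 is a pseudogene by its symbol, so both were set apart and 48 genes remained. These were 19 genes of the 20S core (Psma and Psmb), 20 of the 19S regulatory particle (Psmc and Psmd) and 9 for activators, an inhibitor and assembly chaperones (Psme, Psmf and Psmg). Of the 48 genes, 46 averaged 0.5 FPKM or more across the 6 libraries and were tested.

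RNA-seq libraries, directional and made from poly(A) RNA, came from amygdala tissue of Sprague Dawley rats, an outbred strain. All 6 were labelled male and postnatal day 38. The group B-CTRL comprised 3 libraries of rats that went through behavioural testing and the group NB-CTRL 3 libraries of rats that did not, with no other treatment or genotype in the labels. Values were FPKM, fragments scaled for transcript length and for mapped fragments, so that levels of different genes can be set side by side. Whether every library is from its own animal is not stated in the labels, and p-values here reflect only library-to-library spread, which may be technical.

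The proteasome is the protease that degrades ubiquitin-tagged proteins in the cytosol and nucleus. Its 20S core is a barrel of stacked rings, with alpha subunits (Psma) in the outer rings as a gate and beta subunits (Psmb) in the inner rings, of which Psmb5, Psmb6 and Psmb7 carry the active sites. The 19S particle caps the barrel: its ATPases (Psmc) unfold substrates and its non-ATPase subunits (Psmd) bind and remove ubiquitin. Interferon induces the replacement subunits Psmb8, Psmb9 and Psmb10, which form the immunoproteasome. In neurons, proteasome activity is known to act in synaptic plasticity and memory, including in the amygdala.

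Some libraries stood apart. B-CTRL 1 had a summed FPKM of 0.612 over chromosome Y features, against 89.4 to 129 in the other 5 libraries, which goes against its male label. Its 5 choroid plexus markers summed to 7231 FPKM, against 5.16 to 28.2 elsewhere. FPKM sums were 579141 to 641725 in B-CTRL and 522422 to 536937 in NB-CTRL, so the sums of the groups did not overlap. Fragment counts are unknown. Judged by the step size of low values, depth was, relative to NB-CTRL 1, roughly 0.738 in B-CTRL 2, the shallowest, and up to 1.63 in NB-CTRL 2. This estimate is weak, since only 28.6% to 37.7% of the low values used lay on the step. All 6 markers written for amygdala nuclei were above 0 in all libraries, with overlapping sums (145 to 188 FPKM in B-CTRL and 158 to 175 in NB-CTRL), but single markers stood apart. Neurod6 was at 48.6 FPKM in B-CTRL 1 against 0.875 to 8.31 elsewhere, and Rspo2 at 19.3 against 0.299 to 2.16. Dlk1 was lower in each B-CTRL library (7.60 to 15.4 FPKM) than in each NB-CTRL library (15.9 to 42.3 FPKM). The excitatory neuron marker Slc17a7 ran from 6.58 FPKM in B-CTRL 2 to 350.5 in B-CTRL 1, so the libraries differ in markers of region and neuron type. Every library lists all 37 mitochondrial features at 0, so a 0 can be a failed estimate.

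Sequence near the start sites of these genes is shown because the transcription factor Nfe2l1 is known, from human and mouse cells, to drive proteasome genes through antioxidant response elements. RefSeq windows from 250 bases before to 50 after the start, in build GRCr8, were matched by symbol for 42 of the 46 tested genes. The element core TGACNNNGC was searched on both strands. It occurred in 8 of these 42 windows and in 12.1% of all 33469 RefSeq windows. By class it occurred in 4 of 16 windows of 20S genes, in 3 of 17 of 19S genes and in 1 of 9 of the remainder, Psme4. The stretches below show 1 match each, 5′ to 3′ on the gene's strand, with the match in capitals.
Psmb5 (chr15:32047421-32047449, minus strand): cgtgaagctgTGACGTCGCggcgttgccc
Psmb6 (chr10:55737854-55737882, plus strand): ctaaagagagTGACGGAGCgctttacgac
Psmb2 (chr5:144254980-144255008, plus strand): cccgcgccaaTGACCGGGCggtcgcatat
Psma3 (chr6:95219727-95219755, plus strand): tctgtggcctGCCGGGTCAgcaccatgag
Psmd9 (chr12:39018323-39018351, minus strand): gagtttccggTGACCTCGCcccacctcca
Psme4 (chr14:108706578-108706606, plus strand): ggagaaagccGCTGGGTCAcctcctcgcc
In Psma3 and Psme4 the capitals are the reverse complement of the core, and in Psmb2 the match overlaps a CCAAT box. The CCAAT box itself, on either strand, occurred in 21 of the 42 windows, in 11 of the 16 of 20S genes, in 7 of the 17 of 19S genes, in 3 of the 9 of the remainder and in 37.5% of all windows. The activator gene Psme4 had a lower mean in B-CTRL, a difference that did not pass the test over all features (limma, adjusted p = 0.400). For the catalytic gene Psmb5 and for Psme4 the whole 250 bases before the start are shown, with the element core in capitals.
Psmb5 (chr15:32047380-32047629, minus strand): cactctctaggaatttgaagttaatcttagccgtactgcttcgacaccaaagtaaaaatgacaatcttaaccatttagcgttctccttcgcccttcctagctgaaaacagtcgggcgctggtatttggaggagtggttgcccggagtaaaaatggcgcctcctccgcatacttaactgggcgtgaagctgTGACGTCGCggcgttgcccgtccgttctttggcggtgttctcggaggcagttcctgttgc
Psme4 (chr14:108706393-108706642, plus strand): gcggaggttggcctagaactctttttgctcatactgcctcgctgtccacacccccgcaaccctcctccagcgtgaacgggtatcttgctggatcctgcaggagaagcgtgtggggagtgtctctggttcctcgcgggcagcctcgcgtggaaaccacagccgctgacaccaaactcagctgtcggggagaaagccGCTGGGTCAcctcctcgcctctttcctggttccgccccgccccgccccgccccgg
A match describes the letters in these windows and was not linked to binding.

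Proteasome genes were mostly higher in tested rats on average, by small steps, and no single gene passed the test over all features. The mean log2 level was higher in B-CTRL for 42 of 46 tested genes, against 49.7% of all 14043 features tested. The median log2 difference was 0.31 (quartiles 0.19 and 0.42), against -0.0024 (quartiles -0.26 and 0.22) over all features. Each B-CTRL library was above each NB-CTRL library for 27 of the 46 genes, against 11.7% of all features, and below it for 1, Psme4, against 12% of all features. In limma, with Benjamini-Hochberg adjustment over all features, 0 of the 46 genes and 0 of all features (0%) had an adjusted p under 0.05. The adjusted limma p of the 46 genes ran from 0.400 to 0.97. At an unadjusted limma p under 0.05 there were 15 genes higher in B-CTRL (background 6.25%) and 1 lower (background 6.07%). The members move together, so these counts are not separate differences. In bulk tissue, a change in the makeup of cells and a change in RNA per cell cannot be told apart. All 5 oligodendrocyte markers were higher on average in B-CTRL (median log2 difference 0.38), with overlap for each, and B-CTRL 2 was the highest library for 0 of them. Of the 7 neuron markers 2 were higher (median -0.13). Their part in the proteasome values was not tested.

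**Figure D1:**
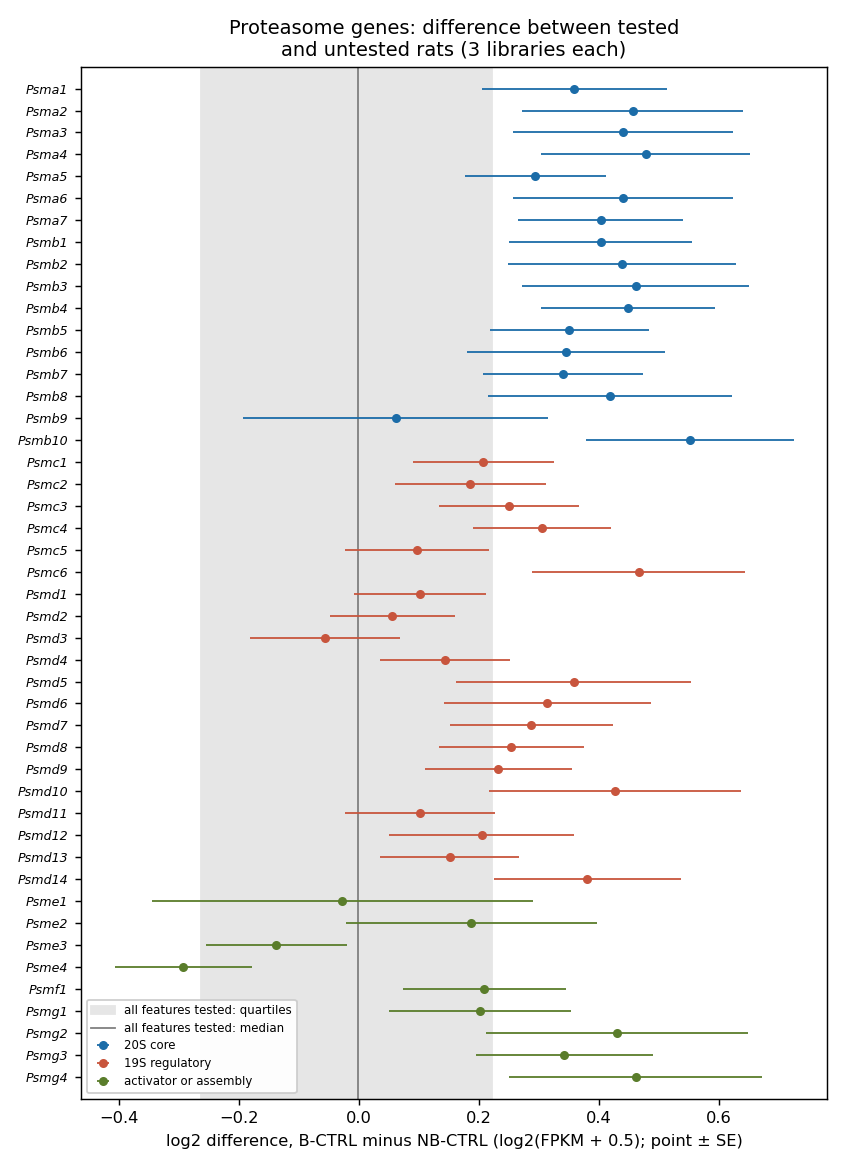
Log2 difference (B-CTRL minus NB-CTRL, on the log2(FPKM + 0.5) scale) of the 46 tested proteasome genes, coloured by class, as point ± SE from limma with 3 libraries a group. The grey band and line give the quartiles and median of all 14043 features tested. The 17 genes of the 20S core lie above 0, at 0.061 to 0.55, and Psme4 lies lowest at -0.29.

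The 20S core had the larger median of the classes. For the 20S core all 17 tested genes were higher on average in tested rats, with a median of 0.42, and 16 had no overlap between the groups. For the 19S particle 19 of 20 were higher, with a median of 0.22, and 9 had no overlap. For activators and assembly genes 6 of 9 were higher, with a median of 0.20, and 2 were higher and 1 lower without overlap. Over all features, 49.7% had a higher mean, and 11.7% lay above and 12% below without overlap. The 1 lower gene of the 9 (11.1%) is a share near that of all features. In each library the mean log2 level of the 20S genes exceeded that of the 19S genes. The gap amounted to 0.29, 0.38 and 0.26 for tested rats (B-CTRL 1, 2, 3) and to 0.15, 0.12 and 0.16 for untested rats (NB-CTRL 1, 2, 3). Each B-CTRL gap was thus above each NB-CTRL gap, by a mean of 0.17 on the log2 scale. As a difference within a library, the gap does not move with a factor common to all genes of that library. No p is given for it, since the genes were grouped with earlier results known.

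**Figure D2:**
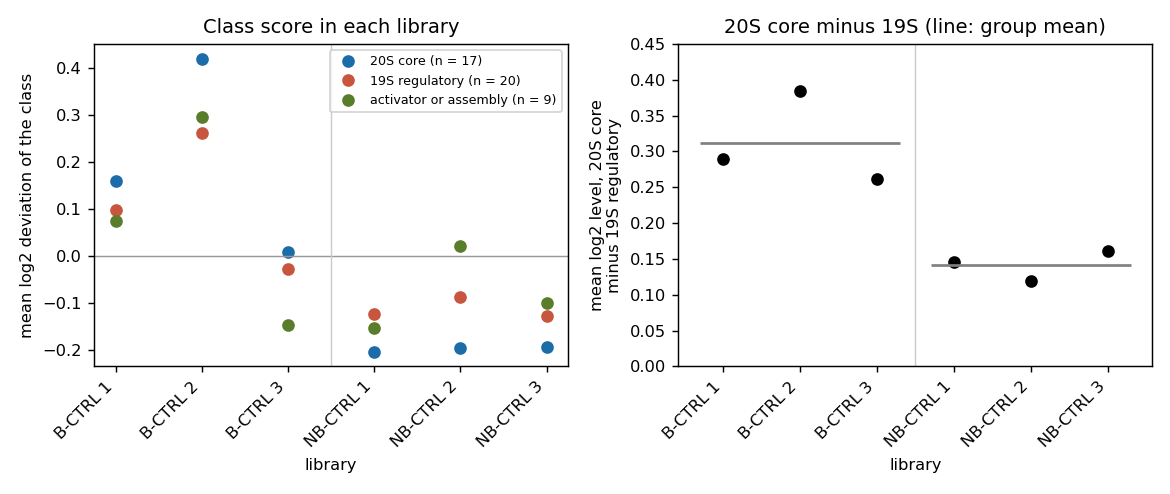
Left, mean log2 deviation of each class from the mean of its genes over 6 libraries, by library. Right, mean log2 level of the 20S core genes minus that of the 19S regulatory genes, by library, with a line at each group mean. The right panel shows 0.26 to 0.38 in B-CTRL and 0.12 to 0.16 in NB-CTRL, and in the left panel B-CTRL 2 is highest in every class.

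The shift was uneven among tested rats. B-CTRL 2 held the highest value of the 6 libraries for 38 of the 46 genes, against 29.3% of all features. The order B-CTRL 2 above B-CTRL 1 above B-CTRL 3 held for 30 genes, against 20.6% of all features. The class score of the 20S core, the mean log2 deviation of its genes from their 6-library means, reached 0.16 (B-CTRL 1), 0.42 (B-CTRL 2) and 0.0088 (B-CTRL 3), against -0.20, -0.19 and -0.19 for NB-CTRL 1 to 3. For the 19S particle the scores were 0.098, 0.26 and -0.026 against -0.12, -0.086 and -0.13. NB-CTRL libraries lay close together, with a median SD of 0.061 log2 per gene against 0.20 in B-CTRL (0.14 and 0.29 over all features). B-CTRL 2 is also the shallowest library by the rough depth estimate and had the strongest relation to locus length. The part of either in the result was not tested beyond the refits given here.

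Without B-CTRL 2 there were 27 genes with no overlap in the upward direction (13.6% of all features), and the median was 0.21 for all genes, 0.26 for the 20S core, 0.17 for the 19S particle and 0.085 for activators and assembly genes. Without B-CTRL 1, the library that goes against its label, 29 genes had no overlap (19.6% of all features), with medians of 0.44, 0.21 and 0.21 for the 3 classes. Leaving out a library cannot make separate groups overlap. These counts of genes without overlap therefore could not fall below 27, and they do not test the result. The number at an unadjusted limma p under 0.05 was 7 without B-CTRL 2 and 9 without B-CTRL 1, where 8.80% and 13.9% of all features were below that p. It was 28 without B-CTRL 3, where 25.9% of all features were below that p, and 2, 1 and 1 without NB-CTRL 1, 2 and 3 (5.80%, 3.67% and 6.08% of all features).

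Summed FPKM of the 48 genes reached 4305, 5175 and 3951 for B-CTRL 1 to 3, against 3548, 3678 and 3540 for NB-CTRL 1 to 3. The groups do not overlap on this scale. As a share of each library's FPKM sum the values were 0.743%, 0.806% and 0.677% against 0.661%, 0.704% and 0.672%, and B-CTRL 3 then lay below NB-CTRL 2. Quantile normalization, which gives all libraries the same distribution, lowered the median to 0.24 for the 20S core and 0.10 for the 19S particle. It left 15 genes without overlap above NB-CTRL, against 11.8% of all features, and 39 with a higher mean. Of the 15, 9 were 20S genes, down from 16, and 4 were 19S genes, down from 9. At an unadjusted limma p under 0.05 it left 2 of the 46 genes, a share below the 11.8% of all features. The gap between 20S and 19S was 0.15 larger in B-CTRL under that setting. Median scaling, which sets the library medians equal, raised the medians to 0.51 for the 20S core and 0.31 for the 19S particle. The median of all features was then 0.091. It gave 31 genes without overlap above NB-CTRL, against 16.0% of all features.

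**Figure D3:**
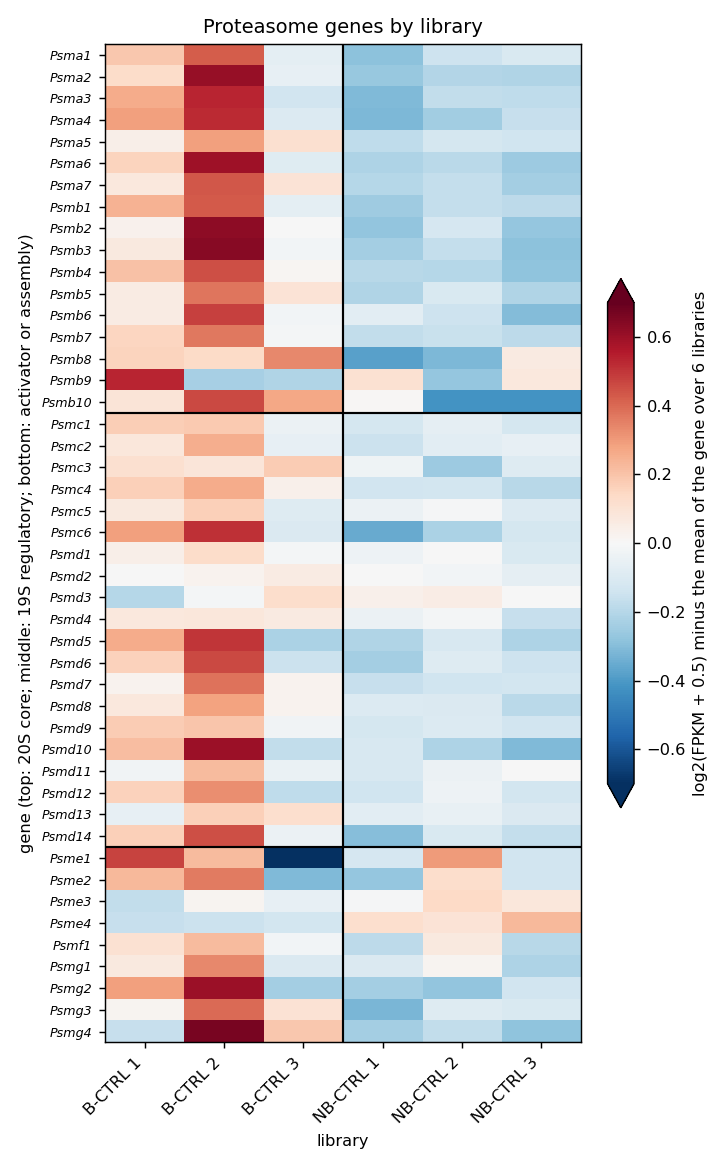
Log2(FPKM + 0.5) of each tested proteasome gene minus its mean over the 6 libraries, one row per gene and one column per library. Horizontal lines divide the 20S core, the 19S particle, and the activator and assembly genes, and the vertical line divides B-CTRL from NB-CTRL. The B-CTRL 2 column is the highest for 38 of 46 genes.

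The alpha ring genes, whose products gate the core, showed no overlap throughout. All 7 of Psma1 to Psma7 had each B-CTRL library on the higher side, with a median log2 difference of 0.44, and 6 had an unadjusted limma p under 0.05. Over all features these shares were 11.7% and, in the higher direction, 6.25%. Psma7 stood at 199, 256 and 202 FPKM in B-CTRL 1, 2 and 3 and at 165, 169 and 160.2 FPKM in NB-CTRL 1, 2 and 3. All B-CTRL values of Psma7 were above all NB-CTRL values, with a log2 difference of 0.40 ± 0.14 SE (limma, adjusted p = 0.400). Mean levels over 6 libraries ran from 42.5 FPKM for Psma3 to 192 FPKM for Psma7. The alpha subunit gene Psma8, known for its role in testis, had at most 0.0246 FPKM in any library and was not tested.

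Among the beta genes, the structural subunit Psmb4 had the highest level of all proteasome genes. It stood at 259.9, 309 and 227 FPKM in B-CTRL and at 196, 196 and 185 FPKM in NB-CTRL, without overlap. Its log2 difference was 0.45 ± 0.14 SE (limma, adjusted p = 0.400). Psmb4 lies on chromosome 2, 196043617 to 196046311, in build rn6 as the table gives it, and Psma7 on chromosome 3, 175420038 to 175426395. The other structural genes Psmb1, Psmb2 and Psmb3 had log2 differences of 0.40, 0.44 and 0.46, also without overlap. All 14 constitutive 20S genes, Psma1 to Psma7 and Psmb1 to Psmb7, had each B-CTRL library above each NB-CTRL library (11.7% of all features). B-CTRL 2 was the highest in all 14 (29.3% of all features). This holds for the values as deposited; quantile normalization left 9 of the 17 tested 20S genes without overlap.

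The 3 catalytic genes differed by similar amounts. Psmb5, which carries the chymotrypsin-like site, stood at 195, 244 and 201 FPKM in B-CTRL and at 162, 175 and 163 FPKM in NB-CTRL, with a log2 difference of 0.35 ± 0.13 SE. Psmb6, which carries the caspase-like site, stood at 149, 199 and 141 FPKM against 136, 129 and 116 FPKM, with a log2 difference of 0.35 ± 0.17 SE. Psmb7, which carries the trypsin-like site, stood at 169, 197 and 151 FPKM against 135, 136 and 134 FPKM, with a log2 difference of 0.34 ± 0.13 SE. The groups did not overlap for any of the 3, and each had an adjusted limma p of 0.400 or 0.405. The table gives Psmb7 the same locus as Nek6 (chromosome 3, 22811926 to 22952063), so its value is uncertain. The same holds for Psmb5, Psmc1, Psmc5, Psmd1, Psme1 and Psme3, which also share a locus entry with another feature, and for ratios to Psmb5 and Psmb7.

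The immunoproteasome genes were lower in level, with groups apart for Psmb8 and Psmb10 and overlapping for Psmb9. Psmb8, the counterpart of Psmb5, stood at 2.09, 2.05 and 2.44 FPKM in B-CTRL and at 1.29, 1.37 and 1.93 FPKM in NB-CTRL, without overlap, with a log2 difference of 0.42 ± 0.20 SE (limma, adjusted p = 0.406). Psmb9, the counterpart of Psmb6, stood at 6.28, 3.48 and 3.54 FPKM against 4.54, 3.38 and 4.41 FPKM. Its groups overlapped, B-CTRL 1 being highest, and its log2 difference of 0.061 ± 0.25 SE changed sign in 3 of 16 refits. Psmb8 and Psmb9 lie on chromosome 20 (3990612 to 3993769 and 3973419 to 3978845). Psmb10, the counterpart of Psmb7, stood at 28.7, 37.4 and 32.7 FPKM against 27.2, 20.1 and 20.1 FPKM. This was the largest log2 difference among the 46 genes, 0.55 ± 0.17 SE, and the one with the lowest unadjusted p (limma, adjusted p = 0.400). Psmb10 lies on chromosome 19 (37909545 to 37912027). The thymus gene Psmb11 had at most 0.436 FPKM and was not tested.

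Within a library, Psmb8 was 1.04% ± 0.190 of Psmb5 in B-CTRL and 0.921% ± 0.230 in NB-CTRL (mean ± SD of FPKM ratios, n = 3 each). Psmb9 was 2.83% ± 1.27 of Psmb6 against 3.26% ± 0.607, and Psmb10 was 19.3% ± 2.35 of Psmb7 against 16.6% ± 3.08. None of these 3 ratios passed 0.05 in the exact 2-sided permutation test on the log2 scale (p = 1, 0.6 and 0.3, adjusted over the 3 pairs 1, 0.9 and 0.9), which cannot go below 0.1 with 3 libraries a group. The log2 ratios, taken on log2(FPKM + 0.5) unlike the percentages, differed by 0.067, -0.28 and 0.21 (B-CTRL minus NB-CTRL). The first depended on the pseudocount, at 0.16 with 0.1 FPKM and -0.0075 with 1 FPKM. Microglia are known to express immunoproteasome genes at higher levels than neurons. The 7 microglial markers were all above 0 in all libraries and summed to 172 to 238 FPKM in B-CTRL and 165 to 186 FPKM in NB-CTRL, with overlap, and 5 of 7 were higher on average in tested rats. Of these, Tmem119 and Aif1 had no overlap (log2 differences 0.73 ± 0.16 SE and 0.54 ± 0.18 SE, limma, adjusted p = 0.400 for both), against 11.7% of all features. P2ry12, C1qa and Csf1r were at 0.25, 0.25 and 0.029, and Cx3cr1 and Itgam at -0.22 and -0.12, all with overlap. The part of these markers in the immunoproteasome values was not tested.

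**Figure D4:**
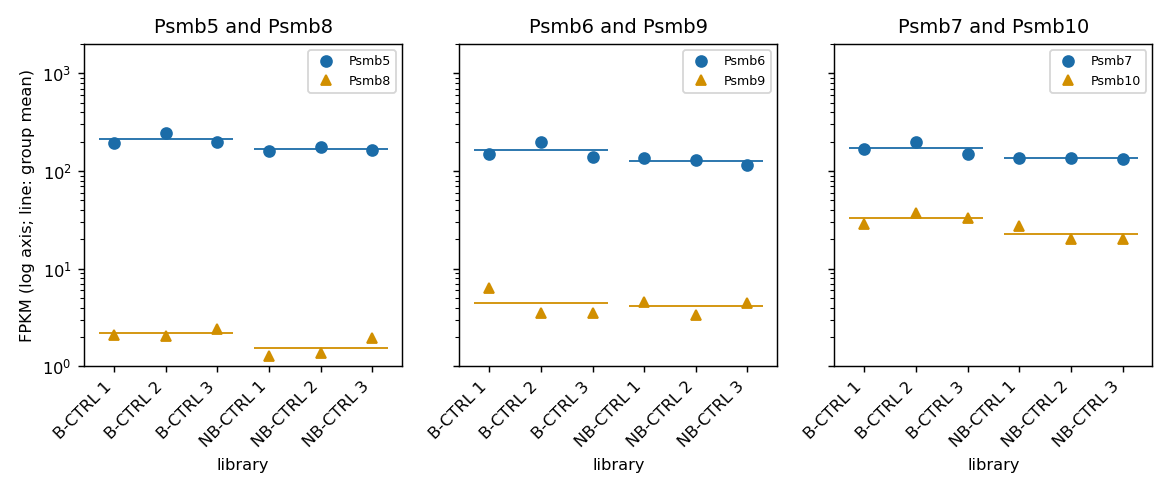
FPKM on a log axis of each catalytic gene (circles) and its immunoproteasome counterpart (triangles) in the 6 libraries, with a line at each group mean. Psmb8 and Psmb9 lie between 1.29 and 6.28 FPKM and Psmb10 between 20.1 and 37.4 FPKM, all below their constitutive counterparts, which lie at 116 FPKM or above.

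The interferon-stimulated response element core (GAAA, any 2 bases, GAAA), a motif added after the data were seen, is shown for the interferon-induced genes. It was searched on both strands and occurred in 7 of the 42 windows (16.7%) and in 3.9% of all windows. Psmb8, Psmb10 and the activator gene Psme2 each held it, Psmb9 and Psme1 had no match in their windows, and the core is in capitals.
Psmb8 (chr20:4657016-4657045, minus strand): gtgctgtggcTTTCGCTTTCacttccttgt
Psmb10 (chr19:50743346-50743375, minus strand): aagcaaaggcGAAAGTGAAAgagaagatgc
Psmb10 (chr19:50743290-50743319, minus strand): agtggggggtGAAAGCGAAAgtaggaagcg
Psme2 (chr15:33052785-33052814, minus strand): cctggagagtGAAAGCGAAAgctggggctg
In Psmb8 the capitals are the reverse complement. The other matches were in Psma4, Psmb3, Psmd7 and Psmg4.

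Of the ATPases of the 19S base, 6 of 6 were higher on average in tested rats, with a median log2 difference of 0.23. Of these, 4 had no overlap between groups, against 11.7% of all features in that direction. Psmc4 stood at 99.1, 106 and 90.4 FPKM in B-CTRL and at 80.4, 80.7 and 77.1 FPKM in NB-CTRL, without overlap, with a log2 difference of 0.30 ± 0.12 SE (limma, adjusted p = 0.400). Psmc6 stood at 66.9, 78.3 and 51.0 FPKM against 42.7, 46.9 and 50.2 FPKM, and B-CTRL 3 was just above NB-CTRL 3. Its log2 difference was 0.47 ± 0.18 SE, the largest of the 19S genes. Psmc5 had the highest level of the 19S genes, at 159.6, 171 and 143 FPKM against 148, 151 and 142 FPKM. Its groups overlapped and its log2 difference was 0.097 ± 0.12 SE, or -0.063 with quantile normalization. Psmc4 lies on chromosome 1, 84978205 to 84986581, and Psmc6 on chromosome 15, 19667452 to 19688914.

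Of the non-ATPase genes 13 of 14 had a higher mean, with a median of 0.22, and 5 lay above without overlap (11.7% of all features). Psmd14 codes for the deubiquitinase that removes ubiquitin chains before substrates enter the core. It stood at 69.7, 85.1 and 60.3 FPKM in B-CTRL and at 50.4, 57.7 and 55.3 FPKM in NB-CTRL, without overlap, with a log2 difference of 0.38 ± 0.16 SE (limma, adjusted p = 0.400). Among the large scaffold subunits, Psmd2 had a log2 difference of 0.055 ± 0.10 SE and Psmd1 of 0.102 ± 0.11 SE. Psmd3 was the only 19S gene with a lower mean, at 71.1, 80.8 and 89.0 FPKM against 83.5, 84.7 and 81.4 FPKM, with overlap on both sides (log2 difference -0.057 ± 0.13 SE). The ubiquitin receptor gene Psmd4 had a log2 difference of 0.14 ± 0.11 SE without overlap.

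The chaperones that assemble the 19S base, Psmd5, Psmd9 and Psmd10, share the Psmd name without being subunits of the finished particle. They stood at 0.36 ± 0.20, 0.23 ± 0.12 and 0.43 ± 0.21 (log2 difference ± SE), and of these only Psmd9 had no overlap. Psmd10, also known as gankyrin, had the lowest level of the 19S class, at 14.6, 19.2 and 11.1 FPKM in B-CTRL and 11.6, 10.7 and 10.01 FPKM in NB-CTRL, B-CTRL 3 lying below NB-CTRL 1.

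The assembly chaperones of the 20S core were higher on average, with overlap for 2 of 4, where 11.7% of all features lay above without overlap. Psmg3 stood at 40.6, 53.0 and 43.0 FPKM in B-CTRL and at 32.0, 37.7 and 37.3 FPKM in NB-CTRL, without overlap, with a log2 difference of 0.34 ± 0.15 SE (limma, adjusted p = 0.400). Its partner Psmg4 stood at 38.3, 68.2 and 48.9 FPKM against 36.2, 37.9 and 35.2 FPKM, also without overlap, with a log2 difference of 0.46 ± 0.21 SE, and the B-CTRL 1 value was close to the highest NB-CTRL value. The pair Psmg1 and Psmg2 had log2 differences of 0.20 ± 0.15 SE and 0.43 ± 0.22 SE with overlap. Psmg2 had the lowest level of the class, at 22.9, 28.5 and 15.7 FPKM against 15.8, 15.3 and 17.0 FPKM. Psmf1, which codes for the inhibitor PI31, had a log2 difference of 0.21 ± 0.14 SE with overlap.

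The 4 activator genes (Psme) had a median log2 difference of -0.083, against 0.42 for the 20S core. The 95% intervals of Psme1 (-0.78 to 0.72) and Psme2 (-0.31 to 0.68) include the 20S median, and those of Psme3 and Psme4 do not. That median is an estimate from the same libraries, so this is no test of a difference from the core. Psme4 codes for PA200, a cap that opens the 20S gate without ATP and acts in the nucleus. It stood at 19.3, 19.5 and 19.8 FPKM in B-CTRL and at 23.6, 23.2 and 25.4 FPKM in NB-CTRL. Each B-CTRL value of Psme4 was below each NB-CTRL value, with a log2 difference of -0.29 ± 0.11 SE (limma, adjusted p = 0.400). It was the only 1 of the 46 genes below without overlap, and with the trend with locus length removed it no longer was (log2 difference -0.075; limma, adjusted p = 0.827). Psme3, which codes for the nuclear activator PA28 gamma, stood at 41.8, 47.9 and 45.4 FPKM against 46.9, 52.1 and 49.8 FPKM, with overlap and a log2 difference of -0.14 ± 0.12 SE.

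Psme1 and Psme2 code for the interferon-induced subunits of PA28 and lie next to each other on chromosome 15 (34256070 to 34263224 and 34265556 to 34269851). Psme1 stood at 57.4, 48.2 and 24.5 FPKM in B-CTRL and at 37.9, 50.8 and 37.5 FPKM in NB-CTRL. It had both the highest and the lowest of its values among tested rats, and its log2 difference was -0.028 ± 0.32 SE, or 0.33 without B-CTRL 3. Psme2 stood at 25.3, 27.8 and 17.3 FPKM against 17.8, 23.5 and 19.6 FPKM, with overlap and a log2 difference of 0.19 ± 0.21 SE. B-CTRL 3 was the lowest library for both genes.

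Locus length moved with these differences. Among features with a locus of their own, those in the longest eighth (84.8 kb and above) had a median log2 difference of -0.23 and those in the shortest eighth (up to 3.19 kb) 0.13. The median locus was 7.48 kb for the 20S core, 12.2 kb for the 19S particle and 9.46 kb for activators and assembly genes, all within the eighth of 7.14 to 12.2 kb, where the median of all features was 0.083. In each of the 8 eighths the members' median was above that of all features, for example 0.30 against 0.083 over the 11 genes of that eighth and 0.42 against 0.13 over the 5 of the shortest. The 3 longest eighths hold only 2, 1 and 2 members, and in the longest Psme4 lay below the median of all features and Psmd14 above it. Psme4 has a locus of 102.6 kb (chromosome 14, 115166415 to 115269056), in the eighth with the median of -0.23. With each library's trend with length removed by loess, Psme4 stood at -0.075, Psme3 at 0.040 and Psmd14, whose locus is 94.96 kb, at 0.59. Under the same setting the median was 0.39 for the 20S core and 0.21 for the 19S particle, 26 genes had each B-CTRL library above each NB-CTRL library (13.2% of all features), 14 of them 20S genes, none lay below without overlap, and the gap between the classes was 0.16 larger in B-CTRL.

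**Figure D5:**
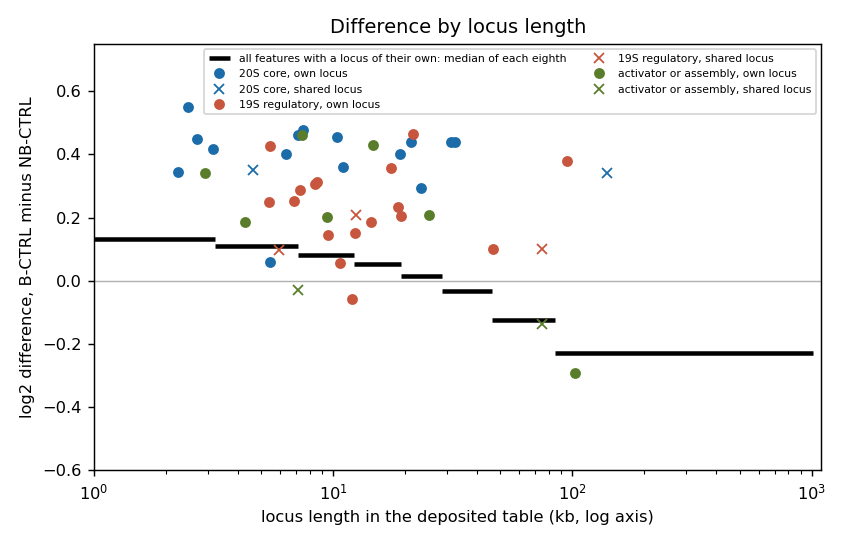
Log2 difference (B-CTRL minus NB-CTRL) of the 46 tested proteasome genes against locus length in kb on a log axis, coloured by class, with crosses for the 7 genes that share a locus with another feature. Black bars give the median of all features with their own locus in each eighth of length, from 0.13 in the shortest to -0.23 in the longest.

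Levels of subunits that stand in the same ring or base in equal number were not equal. Among constitutive alpha genes the lowest was Psma3 and the highest Psma7, and among the ATPases the range was 56.0 FPKM for Psmc6 to 153 FPKM for Psmc5. Median levels were 145 FPKM for the 20S core, 85.3 for the 19S particle and 40.6 for activators and assembly genes. In the order of the 46 mean levels, 40 of 45 neighbouring pairs differed by no more than 1 SD over the 6 libraries, and the order within the pair was the same in all libraries for 8. The breaks larger than that lay below Psmd3, Psmg3, Psmg2, Psmd10 and Psmb9. Named pseudogenes are listed by RefSeq for 19 of the 48 genes, among them Psmb3 with 7 and Psma6 with 5, and reads shared with such copies make single levels uncertain.

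Genes that work with the proteasome had a median near that of all features. Of 37 tested pathway genes, 24 were higher on average in tested rats (49.7% of all features), with a median log2 difference of 0.057. In limma 0 of them had an adjusted p under 0.05. Each B-CTRL library was above each NB-CTRL library for 3 of them and below for 4, shares near those of all features. At an unadjusted limma p under 0.05 there were 3 higher (8.11%, against 6.25% of all features) and 2 lower (5.41%, against 6.07%).

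Among partners of the proteasome outside the naming rule, 8 of 10 tested were higher, with a median of 0.12. Sem1, a small subunit of the 19S particle listed under its older symbol Shfm1, stood at 149.9, 191 and 167 FPKM in B-CTRL and at 128, 116 and 116 FPKM in NB-CTRL. Its groups did not overlap and its log2 difference was 0.49 ± 0.13 SE (limma, adjusted p = 0.400). The ubiquitin receptor gene Adrm1 was at 0.074 ± 0.13 SE and the deubiquitinase genes Usp14 and Uchl5 at 0.030 ± 0.16 SE and 0.24 ± 0.21 SE, all with overlap. Pomp, the maturation chaperone of the core, was listed at 0 in all libraries.

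Of 5 regulators of proteasome gene transcription, 3 had a higher mean and 2 lay lower without overlap (12% of all features). Ddi2, the protease that releases active Nfe2l1, stood at 11.0, 10.1 and 14.8 FPKM in B-CTRL and at 16.1, 15.6 and 16.2 FPKM in NB-CTRL. Its log2 difference was -0.42 ± 0.17 SE (limma, adjusted p = 0.400). Nfe2l1, named after its values were seen, stood at 49.96, 29.6 and 61.38 FPKM against 64.2, 65.6 and 61.40 FPKM, so B-CTRL 3 and NB-CTRL 3 were nearly equal. Its log2 difference was -0.50 ± 0.26 SE, and -0.20 without B-CTRL 2, the library with its lowest value. The relation of Nfe2l1 to the proteasome values was not tested.

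Of 12 ubiquitin shuttles and segregase genes 5 were higher, with a median of -0.031. Nploc4, a cofactor of the unfolding ATPase Vcp, stood at 21.8, 15.9 and 22.5 FPKM against 24.3, 27.7 and 27.4 FPKM without overlap, with a log2 difference of -0.40 ± 0.17 SE. Vcp itself was at -0.040 ± 0.12 SE. Of 4 genes for ubiquitin and its activation all had a higher mean, with a median of 0.33. Of these 4, 2 lay above without overlap (11.7% of all features). The E1 enzyme gene Uba1 had the smallest difference of the 4, at 0.029 ± 0.11 SE with overlap.

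Of 6 tested genes for peptide presentation, the process the immunoproteasome is known to feed, 4 were higher, with a median of 0.12. B2m, the light chain of MHC class I, stood at 239, 246 and 149 FPKM against 128, 142 and 155 FPKM. Its groups overlapped through B-CTRL 3, and its log2 difference was 0.54 ± 0.22 SE (limma, adjusted p = 0.400). The peptide transporter gene Tap1 was at 0.17 ± 0.23 SE and the interferon factor gene Irf1 at 0.14 ± 0.19 SE, both with overlap. Tap2 was listed at 0 in all libraries.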

How the data were processed

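The authors deposited 1 FPKM value per feature and library, per the file headers. Alignment tool STAR (2.5.4b), quantifier Cuffdiff (2.2.1) and build rn6 are listed, per the submitters' processing notes. For annotation release, settings and lanes, nothing is given in the sources used here. These values hold no counts, so depth is unknown in absolute terms and no counting interval is given.

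The filter kept 14043 of 32662 features, those averaging 0.5 FPKM or more. Groups were compared on log2(FPKM + 0.5), a scale that understates changes of low genes, with limma 3.58.1 in R 4.3.3 (intensity trend, 2-sided, no covariates, 4 residual degrees of freedom), with Benjamini-Hochberg adjustment over all kept features (threshold 0.05). The fit was tested on simulated data. The members and lists were chosen with earlier results of these data known; the counts of genes without overlap under alternatives, the refits of named pathway genes and the interferon motif were added after seeing the data. Of 42 pathway and 40 marker symbols, 40 and 39 matched. Values by library are given for the 3 lowest p, the highest and the lowest level per class, the catalytic and immunoproteasome genes and the Psme genes, and for the pathway genes at an unadjusted p under 0.05, of which 1 is not reported here. Other members are named by role. Alternatives were pseudocounts of 0.1 and 1, no filter or 1 FPKM, a replicate block, robust moderation, no trend, quantile normalization, median scaling, locus length correction (loess, span 0.5) and leaving out each library. RefSeq windows (GRCr8) were matched by symbol and used for sequence only.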

Additional observations from a re-analysis of the deposited data

How the results depend on the processing

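No proteasome gene passed an adjusted limma p of 0.05 in the 16 refits (lowest adjusted p 0.108, without B-CTRL 3), and over all features the refits that left out a library called 0 to 1. The number of members with a higher mean in B-CTRL was 39 to 44. The number at an unadjusted limma p under 0.05 was 16 as reported. It was 2 with quantile normalization (11.8% of all features), 20 with median scaling (12.8%) and 8 with no trend (11.4%). Without single libraries it was 1 to 28 (3.67% to 25.9%). With the replicate block it was 9 (10.4%). Deviations of same-numbered libraries correlated at -0.22, 0.072 and 0.15, so the numbers were not taken as pairs, and the block changed no adjusted call. With median scaling 31 genes lay above without overlap, the 20S median was 0.51 and the 19S median 0.31. With quantile normalization 15 genes had no overlap, the 20S median was 0.24 and the 19S median 0.10, and the Psmb8 to Psmb5 log2 ratio differed by 0.39. With a pseudocount of 1 that ratio differed by -0.0075. Without single libraries the medians ran from 0.26 to 0.54 for the 20S core, 0.17 to 0.29 for the 19S particle and 0.085 to 0.33 for activators and assembly genes. The gap between the classes was 0.12 larger in B-CTRL with no filter, which lets in Psma8 and Psmb11. The Psmb10 to Psmb7 log2 ratio differed by -0.14 with locus length corrected, where the locus of Psmb7 is the one it shares with Nek6. The pathway median was 0.15 with median scaling, which moved the median of all features to 0.091, and 0.0097 to 0.13 without single libraries. Signs turned for Psme1 (0.065 with median scaling, 0.33 without B-CTRL 3, 0.11 without NB-CTRL 2, from -0.27 to 0.33 over all single omissions), Psmb9 (-0.018 with length corrected, -0.19 without B-CTRL 1, -0.059 without NB-CTRL 2, from -0.19 to 0.19 over all single omissions), Psmc5 (-0.063 with quantile normalization) and Psme3 (0.040 with length corrected). Where no construction is named, the cause was not tested.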
